A study of Rattus norvegicus with 10 samples.

Results

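Cells attach to the surrounding matrix and to each other, and read positional signals, through a few large families of membrane proteins and their ligands. Integrins are pairs of an alpha and a beta chain that hold the cell to matrix proteins, cadherins and protocadherins join neighbouring cells, and claudins seal epithelial junctions. Semaphorins, Slit proteins and ephrins are guidance signals that are read by plexins and neuropilins, by Robo receptors and by Eph receptors. In skeletal muscle these families take part in the anchoring of satellite cells to the fibre and its basal lamina, in myoblast migration and in the contacts that precede fusion.

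The members described here are 37 genes out of the 32622 Ensembl genes in the count table. They were taken by symbol from the study's supplementary list of genes called against Control, which holds 817 identifiers, 770 of them with a symbol. A gene was a member when its symbol began with 1 of 26 prefixes of adhesion and guidance families, of which 15 had a member, and the endothelial genes *Cdh5* and *Cldn5* were left out. The membership therefore rests on measured values. The list held 10 of the 37 genes for HS1 against Control, 6 for HS3, 22 for HS7 and 11 for HS14, and 26 were listed for 1 time point only. The members are 5 integrin alpha chains, 2 integrin beta chains, 3 cadherins, 6 protocadherins, 4 guidance ligands, 2 guidance receptors, 2 teneurins, 5 genes with a leucine-rich repeat prefix and 8 others. Prefixes also caught genes that are not receptors or ligands of these families: *Itgb1bp2* encodes melusin, a muscle protein that binds the integrin beta 1 tail, and *Itgbl1* a secreted protein with integrin-like repeats. *Lrrn4cl* was likewise taken to share only a prefix. *Cdhr1*, *Lrrc25* and *Lrrc32* were set aside with these genes in a check, although they may share more than a prefix with the families.

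RNA was sequenced from cultured myoblasts of the soleus muscle of male Wistar rats of 3 months of age. The Control rats were caged without suspension, and the others were kept in hindlimb suspension (HS), which takes the weight off the soleus, for 1, 3, 7 or 14 days (HS1, HS3, HS7 and HS14). Cells of the muscles of both hindlimbs were dissociated, expanded, separated from fast-adhering fibro-adipogenic cells by pre-plating and cultured again, so every value describes cells after culture and not the muscle itself. Each of the 5 groups had 2 libraries, and the sources used here do not say whether these came from different animals, so that p-values measure the spread between these libraries only. In bulk RNA, fewer cells of a type and less RNA per cell cannot be told apart.

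The libraries held between 20200972 and 28175200 counts, and 3 counts, the smallest level taken as detectable, corresponded to between 0.106 and 0.149 CPM, the counts of a gene scaled to a common library size of 1e+06. Between 69.4% and 72.0% of the counts from 1 to 20 were even numbers, and the sources used here do not say whether both reads of a fragment were counted. All CPM values below were normalised by the trimmed mean of M-values (TMM) over the 10 libraries. The myogenic marker *Myog* stood at 233 and 244 CPM in Control, 116 and 107 CPM in HS1, 425 and 388 CPM in HS3, 882 and 670.4 CPM in HS7 and 182 and 153 CPM in HS14, and 4 of the 9 myogenic markers of a list written for this work had a symbol paired with an identifier. For the members, the HS7 libraries stood apart from each other: replicate 1 held the higher level for 29 of the 37 members. The median log2 difference of the members was 0.38, beside 0.00 over all 13684 genes kept. Without its sign, the median difference in HS7 was 0.391 for the members and 0.126 over all genes. Over all genes, this size lay between 0.0995 in Control and 0.159 in HS3, so the HS7 libraries did not stand apart as a whole. In the other groups between 17 and 22 members were higher in replicate 1.

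Because the list was made by comparing each time point with Control, those comparisons are described without a test. A difference between 2 time points of suspension was tested for a member only if the list did not hold it for either of them, so that neither group had served to choose it. This gave 83 tests over 35 members in 6 comparisons, each fitted over all genes with edgeR's quasi-likelihood test, and 41 passed a Benjamini-Hochberg adjusted p of 0.01. Values between time points are log2 fold changes with their standard error (SE), and a negative one means a lower level at the later time. Of the 35 members, 23 passed at least once. The other 12 passed in 0 of their 30 tests, of which 5 had an unadjusted p under 0.05 and 0 passed in DESeq2. The 2 members with no such test were *Slit3*, which was listed for 3 time points, and *Pcdh20*, which had too few counts in those comparisons. The dispersion of a gene enters both the list and these tests, so they are not wholly separate from the choice of members.

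**Figure D1:**
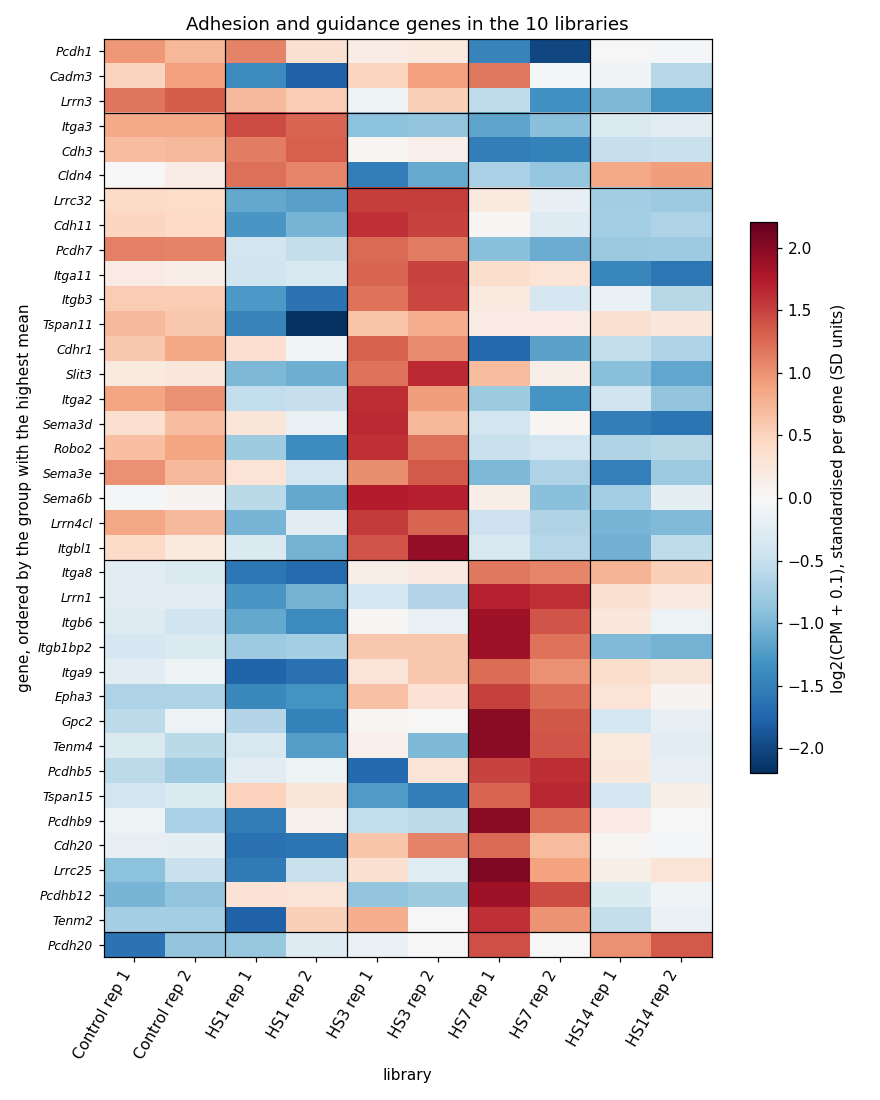
Each row is 1 of the 37 genes and each column 1 of the 10 libraries, and the colour gives log2(CPM + 0.1) standardised per gene, in SD units. Genes are ordered by the group with the highest mean: 15 genes are highest in HS3 and 15 in HS7, and the other 7 in Control, HS1 or HS14.

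Members were sorted by the group in which their mean level was highest. The mean level was highest in HS3 for 15 of the 37 members and highest in HS7 for another 15, or 40.5% each, while 22.3% and 26.0% of all 13684 genes kept were highest in those groups. In HS1, 3 of the 37 members were highest (8.11%, beside 21.7% of all genes) and 16 were lowest (all genes 23.4%). In HS14 only *Pcdh20* was highest (2.7%, beside 21.0% of all genes), and 8 of the 37 were lowest (all genes 18.0%). For 13 of the 15 members highest in HS3 and 14 of the 15 highest in HS7, the other 8 libraries all lay below both libraries of the peak group. How often this holds over all genes was not computed, so nothing is read from it. All of these shares describe genes that were chosen for a difference from Control. The list held 14 of the 15 members highest in HS7 as higher there than in Control, so that share was largely built in by the choice.

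Against Control, 6 of the 35 members fitted were higher in HS1 and 29 were lower, and their median log2 fold change was -0.85, whereas 50.9% of all genes tested were higher. In HS3 the balance turned, with 26 of 35 higher and a median of 0.38, beside 48.9% of all genes. In HS7, 17 of 36 were higher with a median of -0.17 (all genes 50.1%), and in HS14, 15 of 36 with a median of -0.64 (all genes 49.9%). The median of all genes tested lay within 0.01 of 0 in each of these fits. In HS1, 10 members lay below a log2 fold change of -1.5 and 0 above 1.5, beside 2.79% and 0.292% of all genes. In HS3 there were 2 below and 5 above (0.815% and 1.33% of all genes). HS7 had 8 below and 14 above (2.17% and 2.92%), and HS14 had 10 below and 1 above (2.26% and 0.897%). The 4 comparisons share the same 2 Control libraries, and the rule itself used them, so nothing is read from these counts. Just inside the 1.5 limit of the list stood *Itgbl1* in HS14 (-1.53) and *Pcdhb5* in HS7 (1.55), and just outside it *Pcdh7* in HS1 (-1.49) and *Cdh11* in HS3 (1.44). *Cdh20* lay beyond the limit in HS3 (1.73) and was not listed for it.

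Between HS1 and HS3, 12 of the 21 members tested changed, 10 of them upwards. The 10 were the integrin chains *Itga11*, *Itga2* and *Itgb6*, the melusin gene *Itgb1bp2*, the protocadherin *Pcdh7*, the cadherin-related *Cdhr1*, the semaphorins *Sema3d* and *Sema3e*, the leucine-rich repeat gene *Lrrn1*, and *Lrrn4cl*. The cadherin *Cdh3* and the tetraspanin *Tspan15* fell. This is 57.1% of the members tested, beside 30.5% of all 13008 genes (17.2% higher and 13.3% lower in HS3). Of the 22 members open to this test, *Pcdh20* was not fitted, and it was also missing from HS7 against HS1 and HS7 against HS3, as *Tenm2* was from HS14 against HS1 and HS14 against HS3.

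From HS3 to HS7, 8 of the 10 members tested fell and 1 rose, or 90.0% in all. Those that fell were *Cdh11*, *Itga11*, *Itgb3*, *Robo2*, *Sema3d*, *Lrrc32*, *Lrrn4cl* and *Tspan11*, and *Itga9* rose. Members listed for HS3 or HS7 were not open to this test, among them the 14 listed as higher in HS7 than in Control. The direction therefore describes the 10 tested and not all 37 members, of which 15 were highest in HS7. Of all 13164 genes, 23.0% passed, 12.9% downwards and 10.1% upwards. Between HS3 and HS14, 10 of 21 members passed (47.6%, beside 31.9% of all genes), with 8 lower in HS14 (18.1% of all genes) and 2 higher (13.8%), *Itga8* and *Lrrn1*. The 8 were *Cdh20*, *Cdh3*, *Robo2*, *Itga2*, *Itgb3*, *Itgb1bp2*, *Lrrc32* and *Tspan11*.

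The remaining comparisons held fewer calls. Between HS1 and HS14, 5 of 17 members passed (29.4%, beside 24.8% of all genes), with *Epha3*, *Itgb6* and *Lrrn1* higher in HS14 and *Cdh3* and *Itga3* lower. Between HS1 and HS7, 2 of 6 passed (33.3%, beside 34.1%), *Itga11* upwards and *Cldn4* downwards. Between HS7 and HS14, 3 of 8 passed (37.5%, beside 23.5%), *Cldn4* upwards and *Itga9* and *Lrrc32* downwards.

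**Figure D2:**
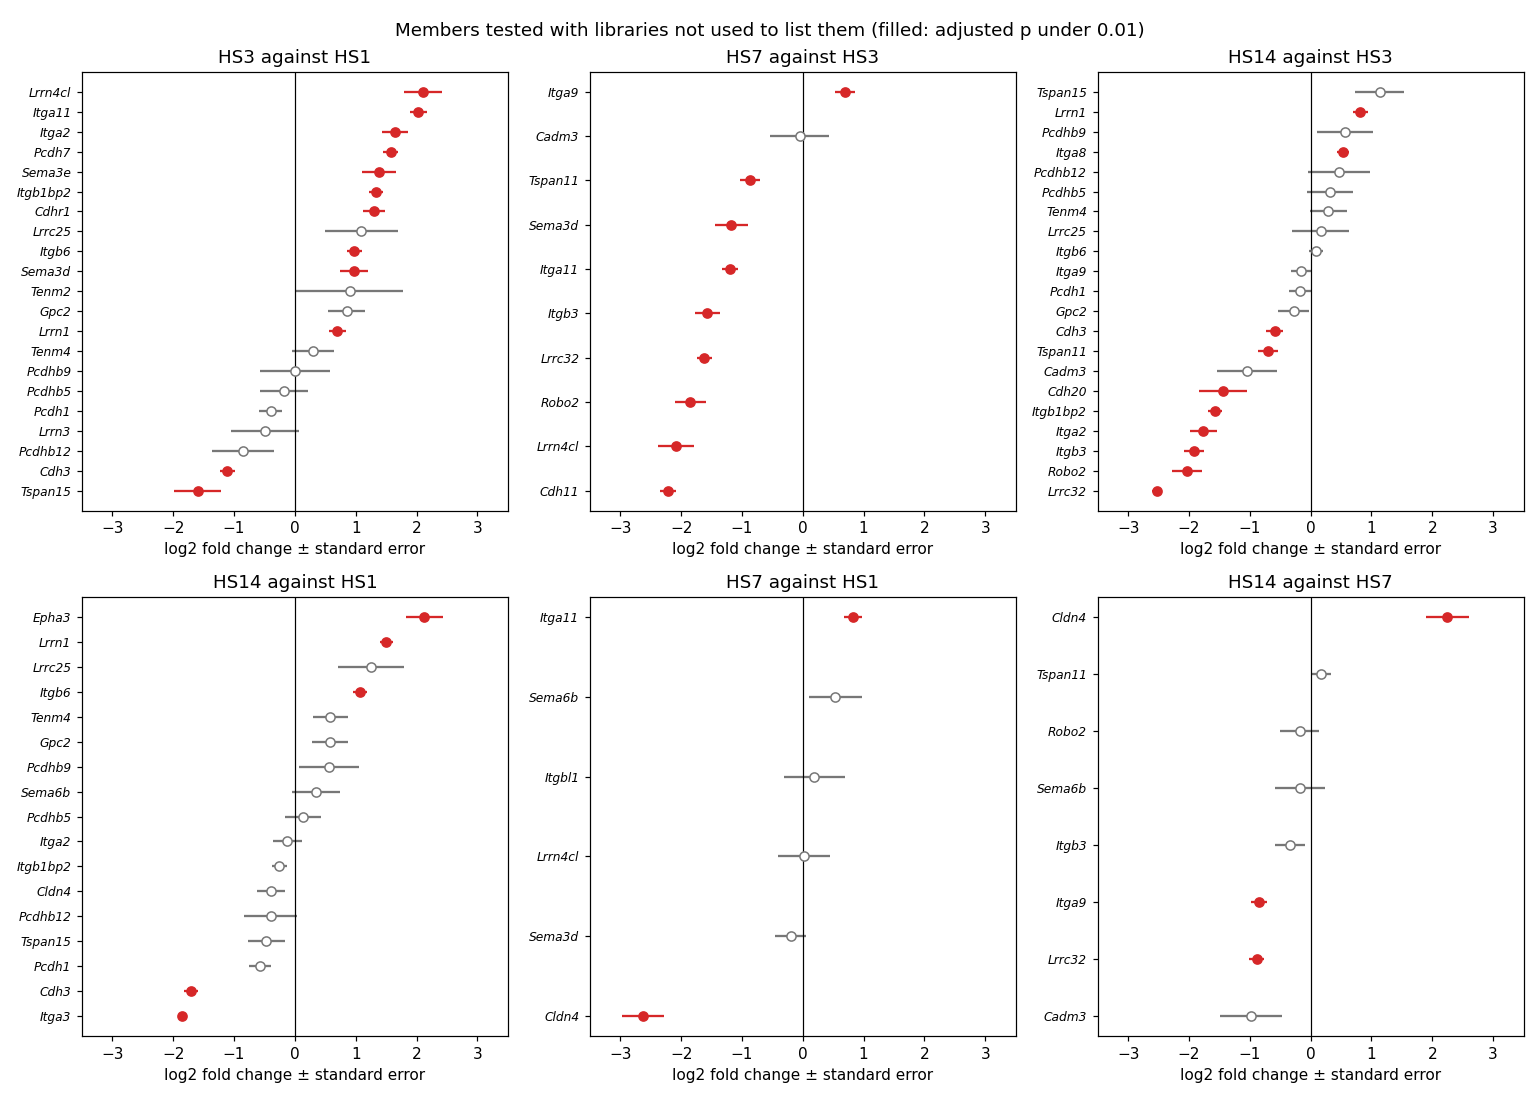
Log2 fold change with its standard error for the 83 tests of members between time points that the list had not used for them, 1 panel per comparison. Filled red points passed an adjusted p of 0.01 and open grey points did not: in HS7 against HS3, 8 of 10 members lie below 0 and pass, and in HS3 against HS1, 10 of 21 lie above 0 and pass. Members listed for either group of a panel are left out of it, so a panel does not show the direction of all members.

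Integrin alpha chains did not share a time course. *Itga3* (ENSRNOG00000004276), the alpha 3 chain of a laminin receptor, stood at 474 and 474 CPM in Control, 749.6 and 667 CPM in HS1, 122 and 126 CPM in HS3, 101 and 120.4 CPM in HS7 and 192 and 207 CPM in HS14. It was highest in HS1 and lowest in HS7, the Control and HS1 libraries all lay above every HS3, HS7 and HS14 library, and the HS1 mean was 6.40 times the HS7 mean. The gene was listed for HS3 and HS7. In the comparison left to test, it was lower in HS14 than in HS1, at -1.85 (SE 0.06, adjusted p = 2.68e-13).

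The collagen-binding chains peaked at HS3. *Itga11* (ENSRNOG00000006723), the alpha 11 chain that pairs with beta 1 and binds fibrillar collagen, was measured at 12.5 and 12.1 CPM in Control, 7.62 and 8.33 CPM in HS1, 29.6 and 35.0 CPM in HS3, 14.8 and 13.8 CPM in HS7 and 3.46 and 3.03 CPM in HS14. Both HS3 libraries lay above all others and both HS14 libraries below. Listed for HS14 alone, it rose from HS1 to HS3 by 2.03 (SE 0.14, adjusted p = 2.91e-13) and fell from HS3 to HS7 (log2 fold change -1.20, SE 0.13, adjusted p = 5.73e-06). The level in HS7 was still above that in HS1, by 0.82 (SE 0.15, adjusted p = 0.000363).

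*Itga2* (ENSRNOG00000058111), the other collagen-binding alpha chain of the list, had 9.03 and 9.79 CPM in Control, 3.73 and 3.82 CPM in HS1, 14.4 and 9.31 CPM in HS3, 3.20 and 2.29 CPM in HS7 and 3.98 and 3.03 CPM in HS14. The HS3 libraries were uneven, and replicate 2 lay within the range of Control. The gene, listed for HS7, rose from HS1 to HS3 by 1.65 (SE 0.22, adjusted p = 3.06e-07) and was lower in HS14 than in HS3 (log2 fold change -1.76, SE 0.22, adjusted p = 1.2e-06). HS14 and HS1 could not be told apart for this gene, at -0.12 (SE 0.24, adjusted p = 0.724).

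*Itga8* and *Itga9* were lowest in HS1 and highest in HS7. *Itga8* (ENSRNOG00000016538), the alpha 8 chain that pairs with beta 1 and binds matrix proteins with an RGD motif such as nephronectin, stood at 31.9 and 30.1 CPM in Control, 10.7 and 9.85 CPM in HS1, 43.5 and 45.4 CPM in HS3, 99.7 and 93.1 CPM in HS7 and 71.3 and 59.5 CPM in HS14. The 5 groups did not overlap, and HS14 had the next highest level. It was listed for HS1 and HS7, and its HS14 level exceeded that of HS3 by 0.53 (SE 0.10, adjusted p = 8.57e-05), a call that was lost without HS14 replicate 1 (log2 fold change 0.40, adjusted p = 0.0233).

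*Itga9* (ENSRNOG00000043167), whose product binds tenascin and osteopontin, showed 6.45 and 7.17 CPM in Control, 2.05 and 2.26 CPM in HS1, 9.57 and 12.2 CPM in HS3, 19.4 and 16.5 CPM in HS7 and 10.4 and 9.48 CPM in HS14. Its HS7 libraries were the highest and its HS1 libraries the lowest of the 10. Listed for HS1, it rose from HS3 to HS7 by 0.70 (SE 0.16, adjusted p = 0.00381) and fell to HS14 (log2 fold change -0.85, SE 0.14, adjusted p = 0.000129). The rise did not pass without HS3 replicate 1 (log2 fold change 0.54, adjusted p = 0.0296) or without HS7 replicate 1 (0.58, adjusted p = 0.0196). The HS14 and HS3 libraries overlapped, with a difference of -0.16 (SE 0.17, adjusted p = 0.465).

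Since 3 alpha chains of 1 family peaked in HS1, HS3 and HS7, the 250 bases upstream of their RefSeq gene starts are shown for comparison (build GRCr8). A promoter entry was matched by gene identifier for 31 of the 37 members. The window of *Itga3* lies at chr10:80518902-80519151 on the minus strand, *Itga11* at chr8:72041182-72041431 on the plus strand and *Itga8* at chr17:80410634-80410883 on the minus strand. Capitals mark matches on either strand to 5 motifs: CAGCTG, an E-box that myogenic factors can bind, TGANTCA, the AP-1 motif, GGAATG, the TEAD motif, GGGCGG, the GC box, and TATAAA, the TATA box.
Itga3: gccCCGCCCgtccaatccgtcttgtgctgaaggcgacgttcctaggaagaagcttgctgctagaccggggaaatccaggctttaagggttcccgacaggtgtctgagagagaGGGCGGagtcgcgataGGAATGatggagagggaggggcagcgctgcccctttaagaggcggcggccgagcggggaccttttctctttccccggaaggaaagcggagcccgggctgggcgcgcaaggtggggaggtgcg
Itga11: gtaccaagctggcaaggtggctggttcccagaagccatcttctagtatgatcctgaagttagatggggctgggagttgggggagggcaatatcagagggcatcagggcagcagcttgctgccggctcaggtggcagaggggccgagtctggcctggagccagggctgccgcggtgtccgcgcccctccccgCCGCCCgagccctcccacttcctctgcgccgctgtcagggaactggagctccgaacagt
Itga8: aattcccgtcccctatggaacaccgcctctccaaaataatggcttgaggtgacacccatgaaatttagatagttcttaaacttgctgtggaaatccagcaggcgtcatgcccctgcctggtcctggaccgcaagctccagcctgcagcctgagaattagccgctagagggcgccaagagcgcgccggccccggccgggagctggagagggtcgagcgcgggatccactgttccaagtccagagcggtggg
The window of *Itga3* held 2 GC boxes and 1 TEAD motif, that of *Itga11* held 1 GC box, and that of *Itga8* held 0 matches. Among the 31 members, the E-box stood in the windows of 4 genes (12.9%, beside 12.0% of all 33469 promoters), *Robo2*, *Itgb1bp2*, *Lrrc25* and *Lrrn3*. GC boxes stood in 12 (38.7%, beside 30.5%), TEAD motifs in 3 (9.7%, beside 12.1%), AP-1 motifs in 3 (9.7%, beside 6.3%) and a TATA box in 0 (beside 12.9%).

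The beta chains also differed from each other. *Itgb3* (ENSRNOG00000048449), the beta chain of the alpha v beta 3 receptor for vitronectin and fibronectin, was found at 12.4 and 12.5 CPM in Control, 2.95 and 2.21 CPM in HS1, 20.3 and 25.2 CPM in HS3, 9.55 and 5.97 CPM in HS7 and 7.19 and 4.97 CPM in HS14. It was highest in HS3 and lowest in HS1. Listed for HS1, it fell from HS3 to HS7 (log2 fold change -1.57, SE 0.21, adjusted p = 0.000127) and was lower in HS14 than in HS3 (log2 fold change -1.92, SE 0.17, adjusted p = 2.7e-09), while HS14 and HS7 overlapped at -0.34 (SE 0.25, adjusted p = 0.33).

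*Itgb6* (ENSRNOG00000008346), the beta chain of the alpha v beta 6 receptor that can release active TGF-beta from its latent complex, measured 30.1 and 27.8 CPM in Control, 18.8 and 16.0 CPM in HS1, 36.1 and 32.4 CPM in HS3, 102 and 77.5 CPM in HS7 and 41.0 and 33.2 CPM in HS14. HS7 was far above the rest, with a wide gap between its replicates, and HS1 was lowest. The gene was listed for HS7 alone, and among the other time points it rose from HS1 to HS3 by 0.98 (SE 0.13, adjusted p = 1.46e-07) and stood higher in HS14 than in HS1 by 1.07 (SE 0.12, adjusted p = 9.7e-07). Between HS3 and HS14 the libraries overlapped, at 0.10 (SE 0.12, adjusted p = 0.533).

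*Itgb1bp2* (ENSRNOG00000003596), the melusin gene of striated muscle, had 24.4 and 25.3 CPM in Control, 18.3 and 18.9 CPM in HS1, 46.5 and 46.5 CPM in HS3, 109.7 and 69.9 CPM in HS7 and 16.2 and 15.5 CPM in HS14. The HS7 replicates differed widely, yet both lay above all other libraries, and HS14 was the lowest group. Listed for HS7, it rose from HS1 to HS3 by 1.33 (SE 0.11, adjusted p = 4.33e-11) and was lower in HS14 than in HS3 (log2 fold change -1.58, SE 0.11, adjusted p = 1.35e-11). HS14 lay below HS1 in both libraries, but the difference of -0.25 (SE 0.12, adjusted p = 0.0956) did not pass. *Itgbl1*, listed for HS3 and HS14, ranged between 0.519 and 8.16 CPM with both HS3 libraries above all others, and HS7 against HS1 gave 0.19 (SE 0.50, adjusted p = 0.781).

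Classical cadherins bind the same cadherin on the next cell, and *Cdh3* was highest in HS1, where *Cdh11* was lowest. *Cdh3* (ENSRNOG00000020129), P-cadherin, was at 25.5 and 26.2 CPM in Control, 34.6 and 39.4 CPM in HS1, 16.6 and 17.4 CPM in HS3, 5.71 and 5.81 CPM in HS7 and 11.4 and 11.6 CPM in HS14. Its level was highest in HS1 and lowest in HS7, and the 5 groups did not overlap. Listed for HS7, it fell from HS1 to HS3 (log2 fold change -1.11, SE 0.12, adjusted p = 8.16e-09) and was lower in HS14 than in HS1 (log2 fold change -1.71, SE 0.11, adjusted p = 1.34e-09). HS14 was also lower than HS3 (log2 fold change -0.59, SE 0.14, adjusted p = 0.00135), although this call was lost without HS14 replicate 1 (log2 fold change -0.58, adjusted p = 0.0169) or replicate 2 (-0.60, adjusted p = 0.0125).

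*Cdh11* (ENSRNOG00000013481), OB-cadherin, a cadherin known from mesenchymal cells and osteoblasts, was at 65.3 and 64.0 CPM in Control, 12.9 and 16.5 CPM in HS1, 185 and 166 CPM in HS3, 43.6 and 32.8 CPM in HS7 and 21.2 and 22.5 CPM in HS14. HS3 was the highest and HS1 the lowest group, and the HS3 mean was 11.9 times the HS1 mean. It was listed for HS1 and HS14, which leaves HS7 against HS3, where it fell (log2 fold change -2.22, SE 0.13, adjusted p = 2.44e-07). *Cdh20* (ENSRNOG00000014556), a cadherin better known from the nervous system, was low throughout at 0.713 and 0.683 CPM in Control, 0.0819 and 0.0868 CPM in HS1, 1.72 and 2.90 CPM in HS3, 3.40 and 1.90 CPM in HS7 and 0.899 and 0.843 CPM in HS14. The HS1 libraries were below the detectable level of 3 counts. Listed for HS1 and HS7, it was lower in HS14 than in HS3 (log2 fold change -1.44, SE 0.39, adjusted p = 0.00435). That call was lost with DESeq2 (adjusted p = 0.0349) and without HS3 replicate 2 (log2 fold change -1.01, adjusted p = 0.155), HS14 replicate 1 (-1.49, adjusted p = 0.0161) or HS14 replicate 2 (-1.39, adjusted p = 0.0185).

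*Cdhr1* (ENSRNOG00000013330), a cadherin-related gene best known from photoreceptors, gave 10.4 and 13.1 CPM in Control, 8.52 and 5.73 CPM in HS1, 19.7 and 15.6 CPM in HS3, 1.25 and 2.06 CPM in HS7 and 3.80 and 3.29 CPM in HS14. HS3 was highest and HS7 lowest. Listed for HS7 and HS14, it rose from HS1 to HS3 by 1.30 (SE 0.18, adjusted p = 1.14e-06).

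**Figure D3:**
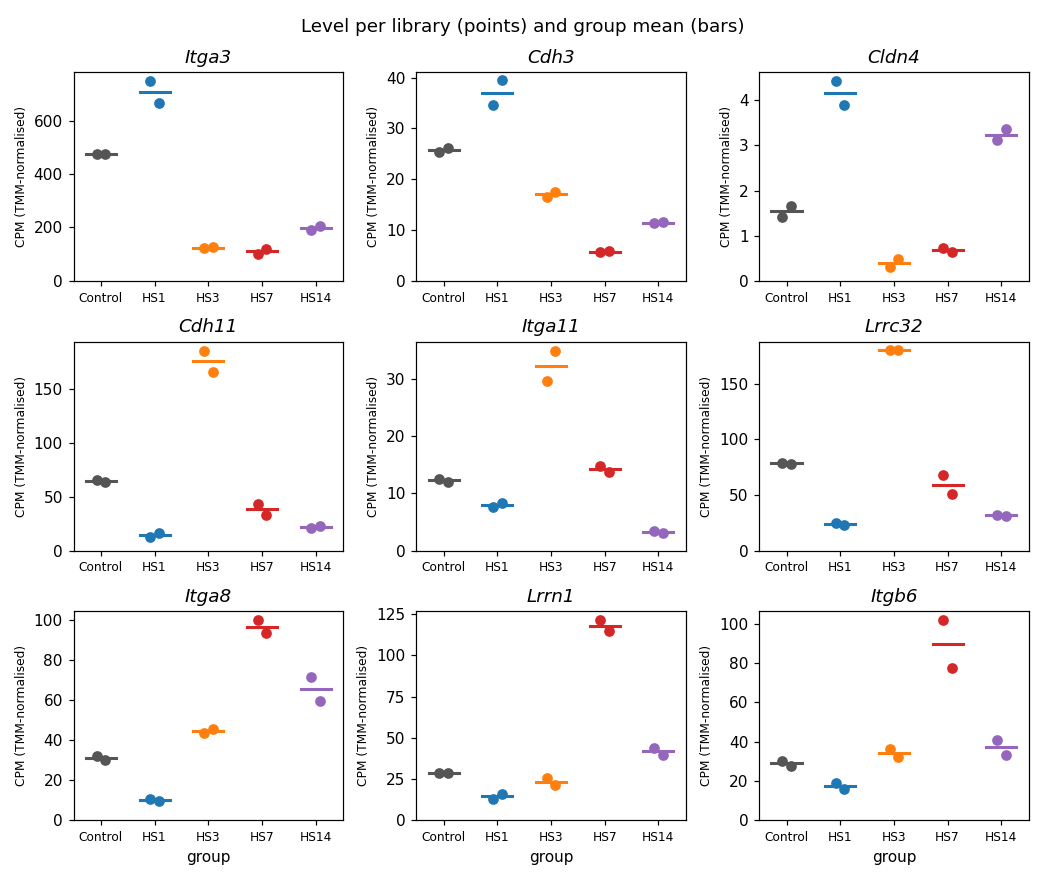
CPM of 9 members in each library (points, 2 per group) with the group mean (bars), from 0 on a linear axis. *Itga3*, *Cdh3* and *Cldn4* are highest in HS1, *Cdh11*, *Itga11* and *Lrrc32* in HS3, and *Itga8*, *Lrrn1* and *Itgb6* in HS7.

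Protocadherins, a family of cadherin-like proteins with their own cytoplasmic tails, were not uniform. *Pcdh7* (ENSRNOG00000012367) stood at 39.5 and 39.3 CPM in Control, 14.5 and 13.5 CPM in HS1, 43.2 and 39.9 CPM in HS3, 10.4 and 9.25 CPM in HS7 and 11.1 and 11.2 CPM in HS14. Control and HS3 lay close to each other, and the libraries of HS1, HS7 and HS14 were all far below them. Listed for HS7 and HS14, it rose from HS1 to HS3 by 1.57 (SE 0.12, adjusted p = 4.21e-12). *Pcdh1* (ENSRNOG00000060410) had 11.2 and 9.98 CPM in Control, 12.0 and 8.20 CPM in HS1, 7.50 and 7.72 CPM in HS3, 3.24 and 2.45 CPM in HS7 and 6.95 and 6.78 CPM in HS14, with HS7 below all other groups. Listed for HS7, it did not pass in HS3 against HS1 (-0.40, SE 0.19, adjusted p = 0.097), HS14 against HS1 (-0.58, SE 0.18, adjusted p = 0.0187) or HS14 against HS3 (-0.17, SE 0.18, adjusted p = 0.48).

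The beta protocadherins *Pcdhb5*, *Pcdhb9* and *Pcdhb12*, all listed for HS7, had their highest levels there in both libraries. *Pcdhb5* ranged between 0.962 and 4.86 CPM, *Pcdhb9* between 0.409 and 3.89 CPM and *Pcdhb12* between 0.554 and 2.51 CPM over the 10 libraries. These genes lie in a tandem cluster of similar copies, and since the treatment of multiply mapped reads is not stated, reads could have been shared or lost between copies. Of the 9 tests of these genes among HS1, HS3 and HS14, 0 passed in edgeR, with adjusted p between 0.183 and 0.999, and unadjusted p was under 0.05 in 0 of them. *Pcdh20*, listed for HS14, had between 0 and 22 counts per library and its highest mean in HS14.

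*Cldn4* (ENSRNOG00000001476), a claudin of epithelial tight junctions, shared the HS1 peak of *Itga3* and *Cdh3*. It was low, at 1.43 and 1.67 CPM in Control, 4.42 and 3.91 CPM in HS1, 0.304 and 0.477 CPM in HS3, 0.729 and 0.632 CPM in HS7 and 3.11 and 3.37 CPM in HS14. HS1 and HS14 were both above Control, and HS3 and HS7 both below. Listed for HS3, it was lower in HS7 than in HS1 (log2 fold change -2.62, SE 0.34, adjusted p = 1.94e-05) and rose from HS7 to HS14 by 2.25 (SE 0.36, adjusted p = 9.98e-05). HS14 against HS1 did not pass, at -0.39 (SE 0.23, adjusted p = 0.205). *Cadm3*, a nectin-like adhesion gene, was listed for HS1 and ranged between 0.174 and 1.62 CPM, with 0 of 3 tests passing among HS3, HS7 and HS14 in edgeR (adjusted p between 0.0877 and 0.947, unadjusted p under 0.05 in 1 of them).

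Among the guidance ligands, the class 3 semaphorins and *Slit3* were highest in HS3. *Sema3e* (ENSRNOG00000006631), a secreted ligand of plexin D1, was measured at 4.83 and 3.87 CPM in Control, 2.78 and 1.56 CPM in HS1, 4.91 and 6.37 CPM in HS3, 0.971 and 1.26 CPM in HS7 and 0.622 and 1.14 CPM in HS14. HS3 was highest and HS7 and HS14 lowest. Listed for HS7 and HS14, it rose from HS1 to HS3 by 1.38 (SE 0.28, adjusted p = 0.000211).

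*Sema3d* (ENSRNOG00000007202), another secreted semaphorin, showed 5.26 and 6.38 CPM in Control, 5.00 and 3.91 CPM in HS1, 11.0 and 6.53 CPM in HS3, 3.40 and 4.43 CPM in HS7 and 1.76 and 1.69 CPM in HS14. HS3 replicate 1 was far above HS3 replicate 2, which lay close to Control. Listed for HS14, it rose from HS1 to HS3 by 0.97 (SE 0.24, adjusted p = 0.00161) and fell to HS7 (log2 fold change -1.18, SE 0.27, adjusted p = 0.00443). Both calls rested on HS3 replicate 1: without it the changes were 0.56 (adjusted p = 0.0869) and -0.75 (adjusted p = 0.0695). The rise also did not pass in DESeq2 (adjusted p = 0.0102), and the fall not with the replicate block (adjusted p = 0.0122).

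*Slit3* (ENSRNOG00000007377), a secreted ligand of Robo receptors, had 6.29 and 6.57 CPM in Control, 1.72 and 1.56 CPM in HS1, 17.7 and 28.2 CPM in HS3, 10.4 and 5.85 CPM in HS7 and 1.83 and 1.43 CPM in HS14. The HS3 libraries lay above all others and those of HS1 and HS14 below all others. It was listed for HS1, HS3 and HS14, so none of its comparisons is tested. *Sema6b*, a membrane-bound semaphorin listed for HS3, ranged between 0.955 and 6.79 CPM with both HS3 libraries above all others, and 0 of its 3 tests among HS1, HS7 and HS14 passed in edgeR (adjusted p between 0.336 and 0.775, unadjusted p under 0.05 in 0 of them).

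The 2 guidance receptors had different time courses. *Robo2* (ENSRNOG00000029598), a Slit receptor, was at 4.63 and 5.31 CPM in Control, 1.72 and 1.13 CPM in HS1, 8.76 and 6.68 CPM in HS3, 2.10 and 2.21 CPM in HS7 and 1.87 and 1.94 CPM in HS14. It was highest in HS3 and stayed low in HS7 and HS14. Listed for HS1, it fell from HS3 to HS7 (log2 fold change -1.85, SE 0.25, adjusted p = 6.4e-05) and was lower in HS14 than in HS3 (log2 fold change -2.04, SE 0.25, adjusted p = 1.99e-07), with HS14 against HS7 at -0.18 (SE 0.32, adjusted p = 0.712).

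*Epha3* (ENSRNOG00000030285), a receptor for ephrin-A ligands, instead peaked in HS7, with 1.86 and 1.86 CPM in Control, 0.901 and 0.998 CPM in HS1, 6.43 and 4.77 CPM in HS3, 14.1 and 11.1 CPM in HS7 and 4.67 and 3.75 CPM in HS14. Both HS7 libraries lay above all others and both HS1 libraries below. Listed for HS3 and HS7, it was higher in HS14 than in HS1 by 2.12 (SE 0.31, adjusted p = 2.67e-05). The teneurins, large proteins that bridge cells through latrophilins, were low and listed for HS7: *Tenm4* ranged between 1.74 and 10.8 CPM and *Tenm2* between 0 and 1.98 CPM. *Tenm4* had both HS7 libraries above all others, and 0 of its 3 tests passed in edgeR (adjusted p between 0.123 and 0.52, unadjusted p under 0.05 in 0 of them). *Tenm2* was fitted only for HS3 against HS1, at 0.90 (SE 0.88, adjusted p = 0.447).

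Leucine-rich repeat proteins carry a repeat that binds other proteins, and the members with such a prefix did not share a time course. *Lrrn1* (ENSRNOG00000006802), a neuronal-type leucine-rich repeat membrane protein, was at 28.9 and 28.7 CPM in Control, 13.1 and 15.8 CPM in HS1, 25.6 and 21.2 CPM in HS3, 121 and 115 CPM in HS7 and 43.9 and 39.6 CPM in HS14. The HS7 libraries lay far above the rest and close to each other. Listed for HS7, it rose from HS1 to HS3 by 0.69 (SE 0.14, adjusted p = 0.000175), although not without HS1 replicate 1 (log2 fold change 0.55, adjusted p = 0.0133). It was also higher in HS14 than in HS3, by 0.82 (SE 0.12, adjusted p = 2.95e-06), and than in HS1, by 1.505 (SE 0.11, adjusted p = 5.73e-09).

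*Lrrc32* (ENSRNOG00000015310), which encodes GARP, a surface protein that holds latent TGF-beta, stood at 79.1 and 78.0 CPM in Control, 24.7 and 23.5 CPM in HS1, 180.1 and 180.3 CPM in HS3, 68.2 and 50.5 CPM in HS7 and 32.3 and 31.5 CPM in HS14. HS3 was highest, with replicates that agreed closely, and HS1 lowest. Listed for HS1, it fell from HS3 to HS7 (log2 fold change -1.62, SE 0.12, adjusted p = 2.13e-06) and from HS7 to HS14 (log2 fold change -0.89, SE 0.13, adjusted p = 0.000435). In HS14 against HS3 the difference was -2.52 (SE 0.09, adjusted p = 8.57e-18). The fall from HS3 to HS7 was -1.62 with an adjusted p of 0.0115 without HS3 replicate 1 and -1.63 with 0.0117 without HS3 replicate 2. The fall from HS7 to HS14 was -0.91 with an adjusted p of 0.0303 without HS14 replicate 1 and -0.87 with 0.038 without HS14 replicate 2.

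*Lrrn4cl* (ENSRNOG00000026302), a small membrane protein gene, had 3.56 and 3.23 CPM in Control, 0.901 and 1.61 CPM in HS1, 5.88 and 4.89 CPM in HS3, 1.38 and 1.19 CPM in HS7 and 0.899 and 0.927 CPM in HS14. HS3 and Control lay above the other groups without overlap. Listed for HS14, it rose from HS1 to HS3 by 2.11 (SE 0.31, adjusted p = 1.84e-06) and fell to HS7 (log2 fold change -2.08, SE 0.29, adjusted p = 8.1e-05), to a level that could not be told from HS1 (0.02, SE 0.43, adjusted p = 0.976). *Lrrn3*, listed for HS7 and HS14, was highest in Control and ranged between 0.0790 and 1.59 CPM, with HS3 against HS1 at -0.49 (SE 0.55, adjusted p = 0.507). *Lrrc25*, listed for HS7, ranged between 0.246 and 3.72 CPM, and 0 of its 3 tests passed in edgeR (adjusted p between 0.0769 and 0.805, unadjusted p under 0.05 in 1 of them).

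Tetraspanins organise receptors in the membrane. *Tspan11* (ENSRNOG00000054360) showed 15.3 and 13.4 CPM in Control, 1.31 and 0.564 CPM in HS1, 13.5 and 16.9 CPM in HS3, 8.50 and 8.42 CPM in HS7 and 10.1 and 8.89 CPM in HS14. Both HS1 libraries were far below the rest, and Control and HS3 overlapped. Listed for HS1, it fell from HS3 to HS7 (log2 fold change -0.87, SE 0.17, adjusted p = 0.000964), which was lost without HS3 replicate 2 (-0.70, adjusted p = 0.0223). HS14 was lower than HS3 (log2 fold change -0.70, SE 0.16, adjusted p = 0.000794), which was lost without HS14 replicate 2 (-0.61, adjusted p = 0.0145) or HS3 replicate 2 (-0.54, adjusted p = 0.0115).

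*Tspan15* (ENSRNOG00000046204), a partner of the protease ADAM10, was low, at 1.62 and 1.75 CPM in Control, 2.87 and 2.47 CPM in HS1, 0.962 and 0.796 CPM in HS3, 4.53 and 5.69 CPM in HS7 and 1.66 and 2.28 CPM in HS14. HS7 was highest and HS3 lowest, without overlap. Listed for HS7, it fell from HS1 to HS3 (log2 fold change -1.60, SE 0.39, adjusted p = 0.00118). That call was lost in DESeq2 (adjusted p = 0.0138) and without HS1 replicate 1 (-1.502, adjusted p = 0.0172) or HS3 replicate 2 (-1.46, adjusted p = 0.0136). *Gpc2*, a glypican listed for HS7, ranged between 1.56 and 11.0 CPM with both HS7 libraries above all others, and 0 of its 3 tests passed in edgeR (adjusted p between 0.0256 and 0.406, unadjusted p under 0.05 in 1 of them).

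Markers of other cell types moved over the same time course. Of 9 fibro-adipogenic markers on a list written for this work, 6 had a symbol, and their summed level was 7859 and 8359 CPM in Control, 2447 and 2424 CPM in HS1, 16908 and 20824 CPM in HS3, 8844 and 8809.9 CPM in HS7 and 3255 and 3042 CPM in HS14. The sum was highest in HS3, where 15 members also were, and lowest in HS1, and most of it was *Col1a1*. *Pdgfra*, a defining marker of these cells, was at 147 and 149 CPM in Control, 30.5 and 31.4 CPM in HS1, 303 and 297 CPM in HS3, 62.3 and 62.7 CPM in HS7 and 59.0 and 57.4 CPM in HS14, while *Dcn* was highest in HS14, at 166 and 159.9 CPM in Control, 37.3 and 37.9 CPM in HS1, 80.0 and 75.0 CPM in HS3, 305 and 236 CPM in HS7 and 439 and 455 CPM in HS14. *Lum* had its highest mean in HS7 (13.0 CPM), close to that in HS3 (12.2 CPM). The HS3 level of *Pdgfra* stood above Control beside the HS3 peaks of *Cdh11*, *Itga11*, *Lrrc32* and *Slit3*. The part of such cells in these results was not tested.

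The summed myogenic markers (*Myog*, *Mymk*, *Mymx* and *Myh3*) stood at 624 and 664 CPM in Control, 365 and 321 CPM in HS1, 1542 and 1584 CPM in HS3, 3216 and 2009 CPM in HS7 and 438 and 383 CPM in HS14. The sum was highest in HS7 as for the 15 members that peaked there, and with replicate 1 above replicate 2 in HS7, as for 13 of these 15. All 4 markers were listed for HS7, so this peak was largely built in by the list. *Myh3* made up most of the HS7 sum, at a mean of 1547 of 2613 CPM. The 3 mural markers with a symbol out of 8 summed to 200.3 and 198 CPM in Control, 73.2 and 72.9 CPM in HS1, 376 and 410.0 CPM in HS3, 261 and 218 CPM in HS7 and 182 and 154 CPM in HS14, and 2 of the 3, *Notch3* and *Rgs5*, were not highest in HS3, with *Rgs5* at 0 in both Control libraries. The 5 endothelial markers with a symbol out of 10 summed to 2.30 and 4.40 CPM in Control, 1.31 and 1.30 CPM in HS1, 8.81 and 8.08 CPM in HS3, 10.4 and 7.11 CPM in HS7 and 14.3 and 13.0 CPM in HS14, and *Emcn* was at 0 in both HS1 libraries and in 1 library each of Control and HS3. The mean of *Kdr* was highest in HS3 (7.40 CPM), and those of *Cdh5*, *Tie1*, *Emcn* and *Esam* in HS14. The 3 Schwann cell markers out of 6 reached 27.3 and 25.1 CPM in Control, 7.00 and 5.90 CPM in HS1, 57.8 and 54.5 CPM in HS3, 82.2 and 57.8 CPM in HS7 and 21.5 and 19.0 CPM in HS14. They did not share a peak: the mean of *S100b* was highest in HS3 (33.9 CPM), of *Erbb3* in HS7 (62.0 CPM) and of *Ngfr* in HS14 (4.07 CPM). A single immune marker of 7, *Lyz2*, had a symbol, at 1.27 and 1.14 CPM in Control, 1.39 and 1.39 CPM in HS1, 4.46 and 7.32 CPM in HS3, 1.46 and 0.553 CPM in HS7 and 2.21 and 1.94 CPM in HS14. The lists hold only genes that the study had called at some time point, and their part in the members' values was not tested.

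**Figure D4:**
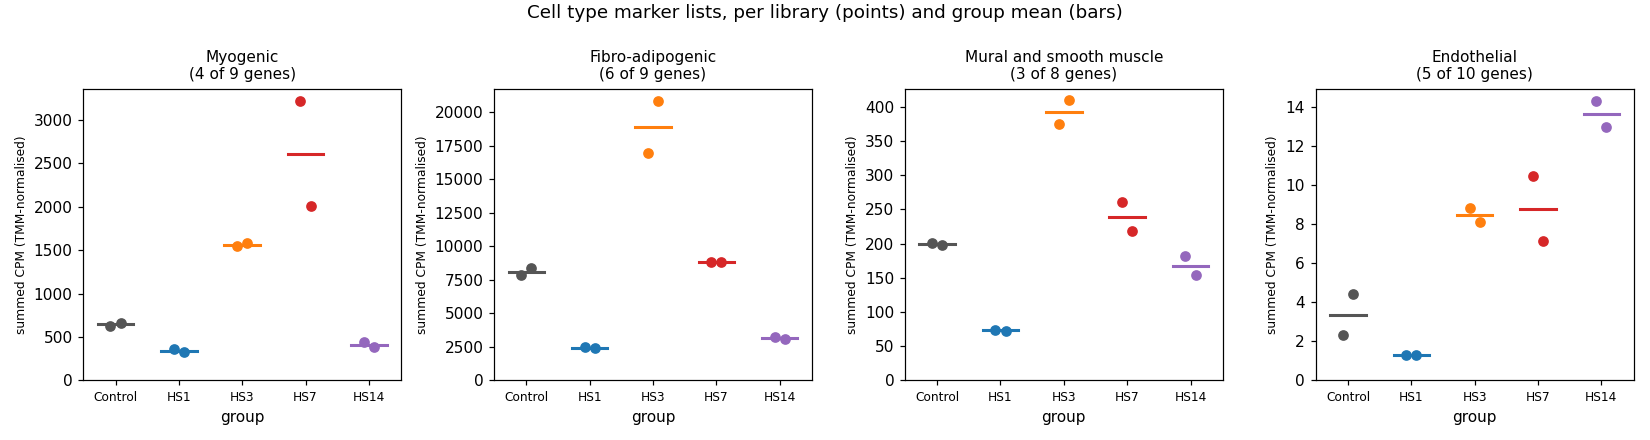
Summed CPM of 4 marker lists in each library (points, 2 per group) with the group mean (bars), on linear axes from 0. The fibro-adipogenic and mural sums are highest in HS3, the myogenic sum in HS7 with a gap between its replicates, and the endothelial sum in HS14.

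Of 69 adhesion partners on a further list (focal adhesion and catenin proteins, matrix ligands, Slit and netrin pathway genes, latrophilins and tetraspanins), 3 had a symbol paired with an identifier. *Lama4*, a laminin alpha chain, was listed for HS1 and stood at 364 and 360.0 CPM in Control, 85.4 and 78.0 CPM in HS1, 660.3 and 698 CPM in HS3, 293 and 257 CPM in HS7 and 195 and 173 CPM in HS14. It was highest in HS3 and lowest in HS1, and it fell from HS3 to HS7 (log2 fold change -1.32, SE 0.09, adjusted p = 6.74e-08) and from HS7 to HS14 (log2 fold change -0.57, SE 0.08, adjusted p = 4.28e-05). *Col1a1* fell from HS3 to HS7 (log2 fold change -1.07, SE 0.11, adjusted p = 5.34e-06). The latrophilin *Adgrl3*, a teneurin receptor, was listed for HS7, and 0 of its 3 tests among HS1, HS3 and HS14 passed in edgeR (adjusted p between 0.529 and 0.857, unadjusted p under 0.05 in 0 of them).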

How the data were processed

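The authors deposited raw counts per Ensembl gene for 10 libraries made with a stranded mRNA kit. The methods and the submitters' notes name FastQC 0.11.9 and featureCounts 1.6.4. They differ on the genome (mRatBN7.2 in the methods, Rnor_6.0 in the notes) and on the STAR version, so no coordinate is taken from the counts. The strand setting and the treatment of multiply mapped reads are not given in the sources used here. Symbols came from the study's supplementary list, whose own fold changes and p-values were not used. Depth ranged from 20200972 to 28175200 counts.

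Each pair of groups was fitted with edgeR 4.0.16 (R 4.3.3) on its 4 libraries: filterByExpr, TMM scaling, robust quasi-likelihood fit and F test, with Benjamini-Hochberg adjustment over all genes tested and a threshold of 0.01. The standard error is the log2 fold change divided by the square root of F. The detection limit of 3 counts covers counting error only. DESeq2 1.42.0 served as an alternative, as did RLE size factors, dropping the filter, 1 fit of all 10 libraries and the replicate number as a block. Further alternatives left out the 6 members set aside for a check, or each library in turn. On simulated data for HS7 against HS3 (13164 genes), edgeR recovered all 200 genes changed by a log2 of 2, with 2 false calls. The changed genes were drawn only from those above a limit of mean count, and every gene had the same dispersion. The simulation therefore says nothing about members with few counts or smaller changes.

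The members, gene lists and tests were chosen with earlier results of these data known. Every member is named. Values in each library are given for members with a mean of at least 5 CPM or a passing test, and ranges for the rest. Other genes come from lists of markers (myogenic, endothelial, fibro-adipogenic, mural, Schwann and immune) and of 69 adhesion partners, of which 3 had a symbol. Same-numbered replicates did not deviate together over all genes (correlations of their differences between -0.02 and 0.04). The main fits therefore did not pair libraries by number, although these correlations cannot show whether such libraries shared an animal or day.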

Additional observations from a re-analysis of the deposited data

Results flagged for a closer look

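A result is given here when a member passed the edgeR test between 2 times of suspension and all libraries of the 2 groups lay on opposite sides of both Control libraries. This was the case for 29 of the 41 passing results. The same share over all passing genes was not computed, so this count and those below are not read as a trait of the members. The Control libraries enter as the point of reference and also through the choice of tests. A member was tested only if the list held it for neither group, which limits how far either group lay from Control. A gap between such groups tends to span Control by this choice alone, so the crossing itself is not read as a finding. The members were also chosen for a difference from Control at another time. All values are log2 fold changes.

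Between HS3 and HS1, 10 members crossed Control. Above Control in HS3 and below it in HS1 were *Lrrn4cl* (2.11), *Itga11* (2.03), *Pcdh7* (1.57), *Sema3e* (1.38), *Itgb1bp2* (1.33), *Cdhr1* (1.30), *Itgb6* (0.98) and *Sema3d* (0.97). Against Control, the HS3 log2 fold change was only 0.07 for *Pcdh7* (SE 0.09), 0.24 for *Itgb6* (SE 0.10) and 0.38 for *Sema3e* (SE 0.22). For the others of these members it lay between 0.58 and 1.39. The opposite order, below Control in HS3 and above it in HS1, held for *Tspan15* (-1.60) and *Cdh3* (-1.11). In HS7 against HS3, 6 members went from above to below Control: *Cdh11* (-2.22), *Lrrn4cl* (-2.08), *Robo2* (-1.85), *Lrrc32* (-1.62), *Itgb3* (-1.57) and *Sema3d* (-1.18).

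In HS14 against HS3, *Lrrc32* (-2.52), *Robo2* (-2.04), *Itgb3* (-1.92) and *Itgb1bp2* (-1.58) were above Control in HS3 and below it in HS14, and *Lrrn1* (0.82) the reverse. In HS14 against HS1, *Epha3* (2.12), *Lrrn1* (1.505) and *Itgb6* (1.07) were above Control in HS14 and below it in HS1, and *Itga3* (-1.85) and *Cdh3* (-1.71) the reverse. *Cldn4* was below Control in HS7 and above it in HS1 (-2.62) and HS14 (2.25), and *Itga11* was above Control in HS7 and below it in HS1 (0.82).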

How the results depend on the processing

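Of the 41 passing results of single members, 29 passed under every alternative run, 12 were lost under at least 1 and 0 reversed. DESeq2 lost 3 (*Sema3d* in HS3 against HS1, *Tspan15* and *Cdh20*), the replicate block 1 and the fits without 1 library 20 of 164, while RLE size factors, no filter and 1 fit of all 10 libraries lost 0. The numbers of passing members stayed within 1.5 times the reported ones. Leaving out 1 library gave between 11 and 13 for HS3 against HS1, 6 and 9 for HS7 against HS3, 5 and 6 for HS14 against HS1, 7 and 10 for HS14 against HS3, 2 and 3 for HS14 against HS7, and 2 throughout for HS7 against HS1. The 6 members set aside for a check were *Itgb1bp2*, *Itgbl1*, *Cdhr1*, *Lrrc25*, *Lrrc32* and *Lrrn4cl*. Without them, the numbers were 9, 7, 5, 8, 2 and 2 in the same order.

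With the replicate block, 12, 8, 6, 10, 3 and 2 members passed in that order, and the call lost was *Sema3d* in HS7 against HS3 (log2 fold change -1.14, adjusted p = 0.0122). Same-numbered libraries did not deviate together over all genes, and the sources used here do not give the animal or day of a library. Whether this block stands for a shared animal or day is therefore not known. With 1 library of a group left out, the remaining one is assumed to vary like the other group. Members near the limit of 3 counts, such as *Cdh20* in HS1 or *Pcdh20*, have no usable fold at this depth.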
